A study of Mus musculus with 6 samples.

Results

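The genes described here are 4 keratins of simple epithelia, Krt7, Krt8, Krt18 and Krt19, and 2 intermediate filament genes of mesenchymal and progenitor cells, Vim and Nes. They were listed by symbol and found in a count table of 24197 genes, where all 6 were present. They were chosen for how they differed between the groups compared below, so their levels and fold changes are given as a description, with no test. The libraries were made from polyadenylated RNA of stromal-vascular cells, the non-adipocyte fraction of fat, from the inguinal adipose tissue of C57BL/6 mice. These cells carried either a control (puro) retrovirus (3 libraries) or a Prdm16 retrovirus (3 libraries). Both groups had therefore been transduced, and both grew in a standard medium. Prdm16 is a zinc-finger regulator of brown and beige fat cells, and the design compares cells with and without the added Prdm16. Separate cultures or animals are not stated for the replicates. The p-values therefore reflect only the scatter among 6 libraries, and that scatter may be technical.

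Intermediate filaments are the rope-like part of the cytoskeleton. Keratin filaments are built from pairs, a type I chain such as Krt18 or Krt19 with a type II chain such as Krt7 or Krt8, and an unpaired keratin protein is usually degraded. Krt8 with Krt18 is the usual pair of simple, single-layered epithelia, and Krt7 and Krt19 are typical of ducts and of mesothelium. Vimentin, the product of Vim, is a type III protein that forms filaments by itself and is the usual filament of fibroblasts and adipose progenitors. Nestin, the product of Nes, co-assembles with vimentin and is known from neural and muscle progenitors and from pericytes.

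Library totals ranged from 28169059 to 35798201 counts. Prdm16 itself held 14 to 25 counts in a puro library and 72525 to 98437 in a Prdm16 library. Levels are given as CPM (counts scaled to a common library size with TMM factors), and a floor of 3 counts in a library stood for 0.0852 to 0.104 CPM. Of 13805 genes tested with edgeR, 75.6% differed at an adjusted p below 0.05 (37.5% higher and 38% lower with Prdm16), and 77.6% had groups that did not overlap. Against that background the groups did not overlap for 5 of the 6 members, a count from which nothing is read because the members were chosen on this comparison. The same 5 had passed the filter on low counts, Krt18 and Krt19 only through the group where they were high. The stromal-vascular label was checked against 13 stromal genes, whose summed level was 9504 to 10100 CPM in puro and 4561 to 4805 CPM in Prdm16 libraries, with the collagen gene Col3a1 highest. Among them 2 were higher, 8 lower and 1 did not pass. Cd55 passed the low-count filter only through the Prdm16 group and Thy1 only through the puro group. The directions of those 2 calls were thus set by that filter, and nothing is read from the counts of calls. The progenitor markers Dpp4 and Pi16 were too low for a test, with 13 and 17 counts over the puro group.

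Krt18 and Krt19, the type I chains, were close to silent in puro cells and present in every Prdm16 library. Krt18 held 0, 3 and 4 counts in puro libraries 1 to 3 and 495, 368 and 441 in Prdm16 libraries 1 to 3, the latter equal to 14.1, 12.7 and 13.2 CPM. The lowest Prdm16 library was 107-fold above the highest puro library. The ratio of the groups was 190, with an exact 95% binomial interval of 91.9 to 473 that covers counting error only. The fitted log2 fold change (Prdm16 over puro) of 7.49 ± 0.24 (SE, n = 3) became 8.08 without puro replicate 3 and 6.97 without puro replicate 1, the library with no count.

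Krt19 held 4, 2 and 4 counts in the puro libraries and 270, 191 and 245 in the Prdm16 libraries. Its Prdm16 libraries stood at 7.67, 6.60 and 7.34 CPM, and the lowest of them was 51.1-fold above the highest puro library. The ratio of the groups was 72.0 (interval 38.9 to 151) and the fitted log2 fold change 6.11 ± 0.21 (SE, n = 3). The log2 fold change of Krt18 was above that of 99.7% of the tested genes and that of Krt19 above 99.3%. Within the Prdm16 group the 2 genes varied little, with a coefficient of variation of 5.11% for Krt18 and 7.62% for Krt19, and for both library 1 was highest and library 2 lowest.

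The type II chains did not show that contrast. Krt7 held 12, 19 and 22 counts in puro libraries (0.387, 0.545 and 0.656 CPM) and 35, 25 and 41 in Prdm16 libraries (0.994, 0.864 and 1.23 CPM). All 3 Prdm16 libraries lay above all 3 puro libraries, but the nearest ones differed by 1.32-fold. The group ratio was 1.94 (interval 1.38 to 2.76) and the log2 fold change 0.95 ± 0.25 (SE, n = 3).

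Krt8, the usual partner of Krt18, was hardly detected in either group. It held 3, 1 and 0 counts in the puro libraries and 0, 3 and 1 in the Prdm16 libraries, 4 over each group. The ratio of 1.02 had an interval from 0.190 to 5.47, so ratios within that range were not excluded by counting error. In the Prdm16 group Krt18 thus had 1304 counts against 4 of Krt8, a ratio per kb of transcript of 444 (interval 173 to 1633). Krt8 is the member with the most sequence in common with other annotated genes. Of the 50-base windows of its transcript, 29.7% also occur in the transcripts of Krt8-ps, an annotated pseudogene, or of Gm36026, and 70.3% occur in no other annotated transcript. The same share of common windows was 0.72% for Krt18, 0.222% for Krt7 and 0% for Krt19, Vim and Nes. Krt8-ps is not a row of the count table, and the sources used here do not say how reads with several matches were counted. The part of shared sequence in the Krt8 value was not tested.

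**Figure D1:**
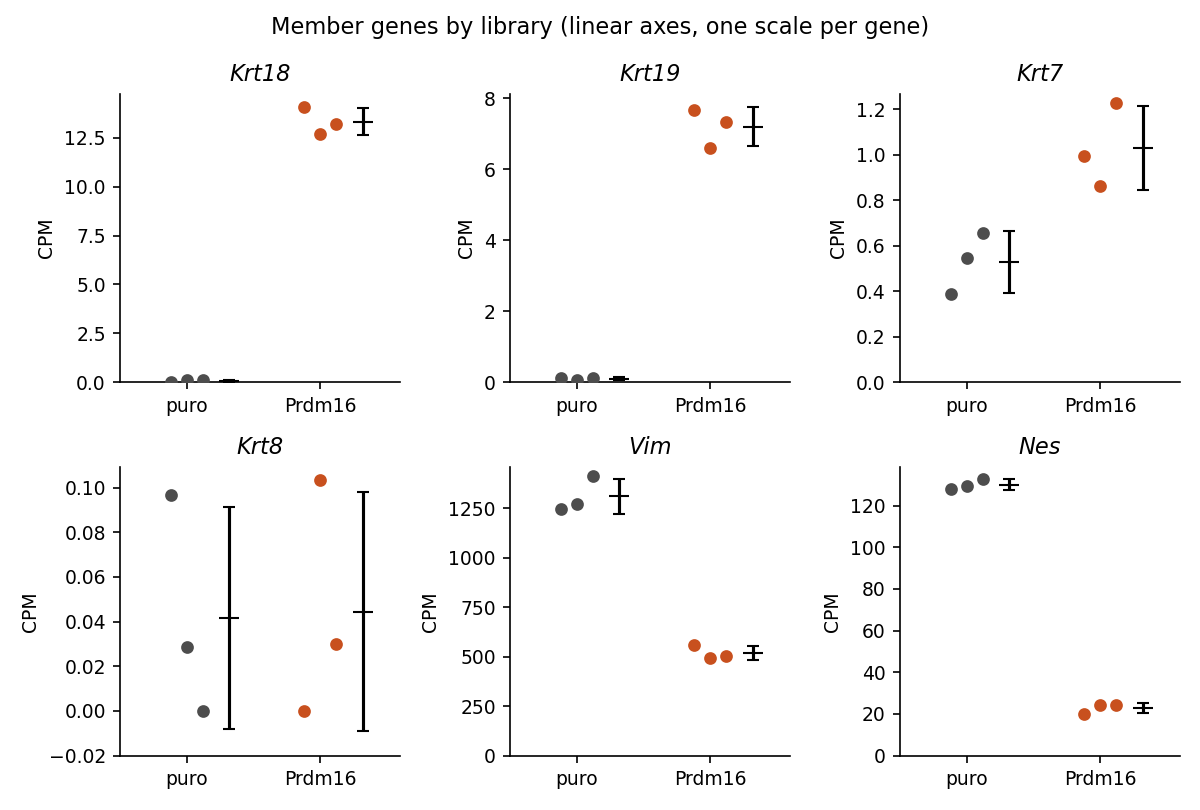
CPM of the 6 genes in each library, with the groups on the horizontal axis and a separate linear scale per gene; points are libraries 1 to 3 from left to right and the bar is mean ± SD (n = 3). Krt18 and Krt19 lie near 0 in puro libraries and at means of 13.3 and 7.20 CPM in Prdm16 libraries, Krt7 differs by 1.94-fold, Krt8 overlaps between groups, and Vim and Nes are lower in all 3 Prdm16 libraries.

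Krt18 and Krt8 are neighbours on chromosome 15, with no protein-coding gene between them in RefSeq, so they are shown together with Krt7, which lies elsewhere in the type II cluster of the same chromosome. The 250 bases before the RefSeq start of each gene are printed 5′ to 3′ on the gene's strand, from RefSeq in build GRCm38.p6, whereas the submitters' processing notes name mm9 for the counts. Capitals mark matches on either strand to TATAA, the GC box GGGCGG, the CCAAT box CCAAT, the E-box CACCTG or the AP-1 motif TGANTCA.
Krt18 (chr15:102027966-102028215, plus strand): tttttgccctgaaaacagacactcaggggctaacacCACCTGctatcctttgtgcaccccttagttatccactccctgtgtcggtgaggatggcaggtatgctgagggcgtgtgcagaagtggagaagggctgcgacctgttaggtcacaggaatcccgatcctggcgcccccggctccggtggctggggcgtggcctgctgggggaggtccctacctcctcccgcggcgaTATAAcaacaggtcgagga
Krt8 (chr15:102004343-102004592, minus strand): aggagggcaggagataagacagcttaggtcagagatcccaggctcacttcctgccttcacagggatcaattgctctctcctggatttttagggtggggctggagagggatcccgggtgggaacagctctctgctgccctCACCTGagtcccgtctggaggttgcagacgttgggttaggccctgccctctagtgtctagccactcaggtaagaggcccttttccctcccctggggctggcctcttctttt
Krt7 (chr15:101412153-101412402, plus strand): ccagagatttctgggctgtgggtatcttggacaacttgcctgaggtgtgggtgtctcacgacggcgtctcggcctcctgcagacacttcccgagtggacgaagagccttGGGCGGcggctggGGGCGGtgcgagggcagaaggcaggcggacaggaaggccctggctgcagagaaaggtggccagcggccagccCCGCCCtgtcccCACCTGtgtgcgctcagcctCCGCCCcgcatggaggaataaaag

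Each of these 3 windows holds 1 E-box CACCTG, the sequence that the repressors of the Snail and Zeb families are known to bind. It begins 214 bases before the start in Krt18, 111 bases in Krt8 and 44 bases in Krt7. The windows of Vim and Nes hold none, and 17.2% of 32851 RefSeq windows of the same length hold at least 1. The Krt18 window has TATAA 19 bases before the start (22.8% of all windows hold TATAA), and the Krt7 window has 4 GC boxes (32.7% hold one). Vim has 2 overlapping matches to TATAA and 2 CCAAT boxes (33.8% of windows hold CCAAT), and Nes has 2 GC boxes. None of the 5 windows holds TGANTCA, which 6.75% of all windows hold. These are letter matches and not measured sites, and Krt19 had no entry in the promoter table.

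Vim was the highest of the 6 genes in both groups and lower with Prdm16. It held 38610, 44316 and 47345 counts in the puro libraries (1245, 1270 and 1411 CPM) and 19714, 14213 and 16832 in the Prdm16 libraries (559.9, 491.0 and 504.2 CPM). Every Prdm16 library lay below every puro library, the nearest by 2.22-fold. Group means were 1309 ± 89.2 and 518 ± 36.6 CPM (SD, n = 3), 2.52-fold lower with Prdm16, with a log2 fold change of −1.34 ± 0.06 (SE). In a bulk sample, fewer cells of a type and less RNA per cell cannot be told apart.

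Nes differed more than Vim on the log2 scale. It held 3975, 4508 and 4459 counts in the puro libraries (128, 129 and 133 CPM) and 711, 709 and 813 in the Prdm16 libraries (20.2, 24.5 and 24.4 CPM). The puro libraries lay close together, with a coefficient of variation of 1.89% against 10.6% in the Prdm16 group, where library 1 was lowest. Group means were 130 ± 2.45 and 23.0 ± 2.44 CPM (SD, n = 3), 5.69-fold lower with Prdm16, and the log2 fold change was −2.50 ± 0.07 (SE). The log2 fold change of Nes lay above that of 4.32% of the tested genes and that of Vim above 9.21%.

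Levels of different genes were compared per kb of the longest annotated transcript (GENCODE M21). In puro cells the order of the CPM per kb was Vim (447 ± 30.5), Nes (21.2 ± 0.401), Krt7 (0.129 ± 0.033), Krt19 (0.0646 ± 0.0247), Krt18 (0.0476 ± 0.0428) and Krt8 (0.0214 ± 0.0254; SD, n = 3). Krt19, Krt18 and Krt8 overlapped in that group and were at the counting floor. In Prdm16 cells the order of the CPM per kb was Vim (177 ± 12.5), Krt18 (9.27 ± 0.474), Krt19 (4.57 ± 0.348), Nes (3.76 ± 0.399), Krt7 (0.251 ± 0.045) and Krt8 (0.0227 ± 0.0272; SD, n = 3). No neighbours in this second order overlapped, but with median transcript lengths Krt19 (8.75) overlapped Krt18. Nes was thus above Krt18 and Krt19 in the puro group and below both in the Prdm16 group.

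The 4 keratins together made 0.0506% to 0.0632% of the CPM per kb of the 6 genes in the puro group and 7.11% to 7.44% with Prdm16. Vim still made 90.5% to 91.3% in the latter. The ratio of Vim to the 4 keratins per kb went from 1726 ± 192 in puro to 12.5 ± 0.348 in Prdm16 libraries (SD, n = 3). With the RefSeq-matched Vim transcript, which is shorter than the longest one, the ratio was 2303 and 16.7, and with the median transcript length 1031 and 19.6. Against all keratins of the table it was 105.5 and 9.53. Vim mRNA exceeded keratin mRNA under each of these choices.

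The balance of the keratin chains also differed. The per-kb ratio of type I members (Krt18 and Krt19) to type II members (Krt7 and Krt8) was 0.569, 0.652 and 0.990 in the puro libraries and 60.3, 49.4 and 43.9 in the Prdm16 libraries. The type II members were the higher ones in puro libraries 1 and 2, and the types were nearly equal in puro library 3. In each Prdm16 library the type I members were the higher ones. The puro ratios rest on few counts, with 7 of Krt18 and 10 of Krt19 over the group. The Prdm16 mean was 51.2 with the longest transcript and 12.1 with the median length, which is much shorter for Krt7; the puro mean was 0.737 and 0.219. Over all keratins of the table instead of the 4 members the mean ratio was 7.31 in puro and 18.8 in Prdm16 libraries. Krt18 and Krt19 stood in a near-constant ratio in the Prdm16 libraries, 2.01, 2.11 and 1.97 per kb with the longest transcripts.

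**Figure D2:**
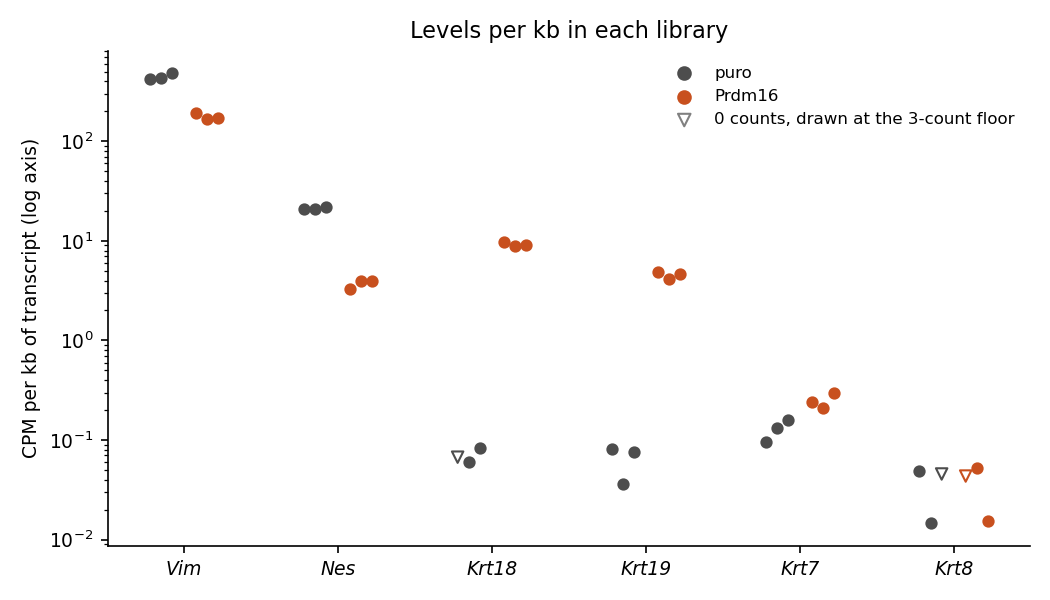
CPM per kb of the longest transcript for the 6 genes on a log axis; each point is a library, and open triangles mark a count of 0 drawn at the floor of 3 counts. Vim is highest in both groups, Nes lies above Krt18 and Krt19 in puro libraries and below them in Prdm16 libraries, and Krt8 stays at the floor in both.

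The rest of the keratin family was mostly undetected. Of 52 keratin symbols in the table, 26 had 0 counts in all 6 libraries, 16 had 1 to 20 counts in all, and 10 had more. The family held 875 counts in puro and 3019 in Prdm16 cells, and Krt18 and Krt19 made 1.94% of them in the first and 66.6% in the second. Type II keratins as a whole held 176 counts in puro and 349 in Prdm16 cells, against 699 and 2670 of type I.

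Among the 48 keratins other than the members 4 could be tested, and 3 were higher and 1 lower with Prdm16 (edgeR quasi-likelihood test, adjusted p below 0.05 over all genes). Krt80, a type II keratin of differentiating epithelia and a chromosome 15 neighbour of Krt7, rose from 0.908 ± 0.080 CPM (SD, n = 3) in puro to 2.32 ± 0.342 CPM with Prdm16, by 1.36 ± 0.17 on the log2 scale (edgeR adjusted p = 2.88e-05). Krt16, a type I keratin induced in injured epidermis, rose by 1.09 ± 0.25 on the log2 scale (edgeR adjusted p = 0.00229). Krt13, a type I keratin of internal stratified epithelia next but one to Krt19, rose by 0.66 ± 0.21 (edgeR adjusted p = 0.0143). The Krt13 call was lost without puro replicate 2 (0.44, adjusted p = 0.0603) or Prdm16 replicate 2 (0.52, 0.0602). Krt10, a type I keratin of suprabasal epidermis, had 49.1% of the keratin counts in puro cells and fell from 430 to 257 counts over a group (log2 fold change −0.72 ± 0.12, edgeR adjusted p = 0.000286). The median log2 fold change of the 4 was 0.87, against −0.01 over all tested genes. Over all tested genes 75.6% were called, 37.5% higher and 38% lower, so nothing is read from the count of calls.

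Several other keratins of basal and stratified epithelium, unlike Krt10, Krt13 and Krt16, were at or near 0. Krt5 had 3 counts over each group and Krt14 had 1 and 2, while Krt6a, Krt6b, Krt1, Krt2 and Krt4 had 0 in all libraries. Krt15 had 2 counts in puro and 21 in Prdm16 cells (ratio 10.7, interval 2.62 to 94.2), and Krt17 had 23 and 3 (ratio 0.133, interval 0.0256 to 0.440). Both were too low for the filtered test.

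**Figure D3:**
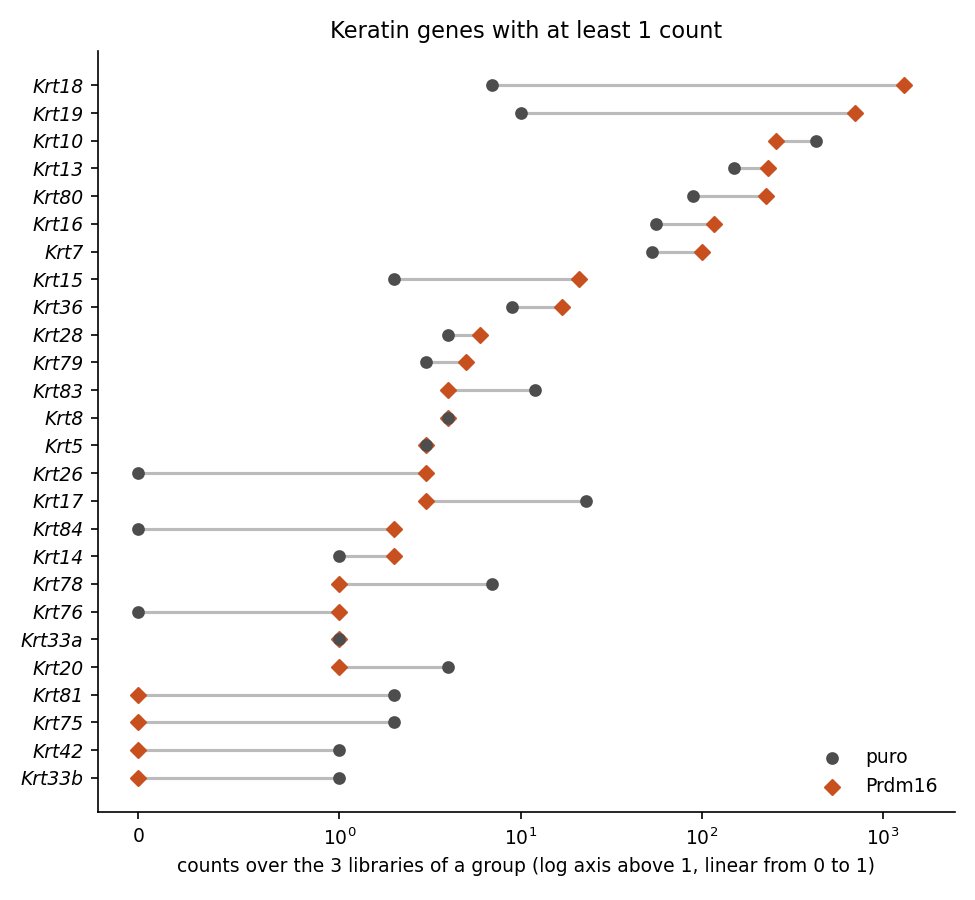
Counts over the 3 libraries of each group for the 26 keratin genes with at least 1 count, on an axis that is logarithmic above 1 and linear from 0 to 1. The lines of Krt18 (7 to 1304) and Krt19 (10 to 706) are the long ones. Krt10 (430 to 257), Krt17 (23 to 3) and several keratins with few counts run the other way. Both points of Krt8 lie at 4.

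Intermediate filament genes outside the keratins were mixed. Of 16 such genes other than Vim and Nes 10 were tested, 3 higher, 5 lower and 2 not passing, with a median log2 fold change of −0.27. That share is close to the 75.6% called over all tested genes (37.5% higher and 38% lower). Among the 5 lower genes, Sync, which encodes syncoilin, fell by 2.79 ± 0.17 on the log2 scale (from 710 to 100 counts over a group, edgeR adjusted p = 4.86e-08). Synm, the gene of synemin, and Des, that of desmin, the muscle type III protein, had log2 fold changes of −1.17 ± 0.12 and −0.88 ± 0.11 (edgeR adjusted p = 5.65e-06 and 3.28e-05). Iffo2, a filament family member, fell by 0.49 ± 0.04, and Iffo1, named after its values were seen, had −0.27 ± 0.09 (edgeR adjusted p = 0.0168). The Iffo1 call was lost without puro replicate 3 (−0.16), Prdm16 replicate 2 (−0.23) or Prdm16 replicate 3 (−0.25).

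The 3 that rose were 2 nuclear lamins and a neurofilament. Lmnb1, a B-type lamin of the nuclear envelope, rose from 3566, 3922 and 3914 counts in the puro libraries to 8495, 6918 and 8106 in the Prdm16 libraries (log2 fold change 1.07 ± 0.03, edgeR adjusted p = 1.92e-10). Lmnb2, also a B-type lamin and named after its values were seen, rose by 0.51 ± 0.07. Nefh, the heavy neurofilament subunit, had 0 counts in all puro libraries and 54, 64 and 79 in the Prdm16 libraries. It passed the low-count filter only through the Prdm16 group, so its place among the 3 that rose was set by that filter. The exact 95% lower limit of its ratio, for counting error only, was 53.9. Nefl had no count, and Nefm had 3 counts in all, each in a puro library.

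The 2 that did not pass, named after their values were seen, were Lmna (log2 fold change −0.27 ± 0.12, edgeR adjusted p = 0.0568) and Prph, the gene of peripherin (0.27 ± 0.28). Lmna encodes the A-type lamins. It passed with upper-quartile scaling (adjusted p = 0.0446), without a low-count filter (0.0267) and when puro replicate 1 (0.0292), puro replicate 2 (0.0416) or Prdm16 replicate 1 (0.00729) was left out. It had −0.13 without puro replicate 3 and −0.17 without Prdm16 replicate 2. Prph had 0.00 without Prdm16 replicate 1.

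Proteins that bind or link cytoskeletal filaments were also divided. Of 9 tested 3 were higher and 4 lower, near the 75.6% called over all genes, with a median log2 fold change of −0.0029. Dsp, the gene of desmoplakin, which ties keratin filaments to desmosomes, stood apart: it held 12, 20 and 19 counts in the puro libraries and 562, 464 and 558 in the Prdm16 libraries (log2 fold change 4.97 ± 0.12, edgeR adjusted p = 3.16e-11). Eppk1, the gene of epiplakin, a keratin-binding protein of epithelia, rose by 0.49 ± 0.15 and Fbf1, a keratin-binding protein also found at centrioles, by 0.15 ± 0.05; the latter call was lost without puro replicate 2 (0.14). Dst, the gene of dystonin, a linker of filaments to hemidesmosomes and microtubules, fell by 0.64 ± 0.04 (edgeR adjusted p = 1.69e-07).

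The remaining linkers differed by small amounts. Plec, the gene of plectin, which crosslinks vimentin and keratin filaments, had −0.32 ± 0.10 (edgeR adjusted p = 0.0140) and Macf1, a linker of actin and microtubules, −0.14 ± 0.05 (0.0141). Fam83h, which regulates keratin filament assembly and was named after its values were seen, had −0.31 ± 0.10 (0.0182). Plec lost its call with DESeq2 (adjusted p = 0.0646), Prdm16 replicate 2 left out (0.0605) or Prdm16 replicate 3 left out (0.0585), and Macf1 without puro replicate 1 (0.0628) or Prdm16 replicate 3 (0.0685). Fam83h lost its call with DESeq2 (0.0702) and without puro replicate 3 (0.0593), Prdm16 replicate 2 (0.0661) or Prdm16 replicate 3 (0.0873). Ppl, the gene of periplakin, had a log2 fold change of −0.0029 ± 0.16, and Tchp, a keratin-binding centriolar protein, 0.11 ± 0.06; neither passed, and both were named after their values were seen. Tchp passed when puro replicate 3 was left out (0.16, edgeR adjusted p = 0.0378).

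**Figure D4:**
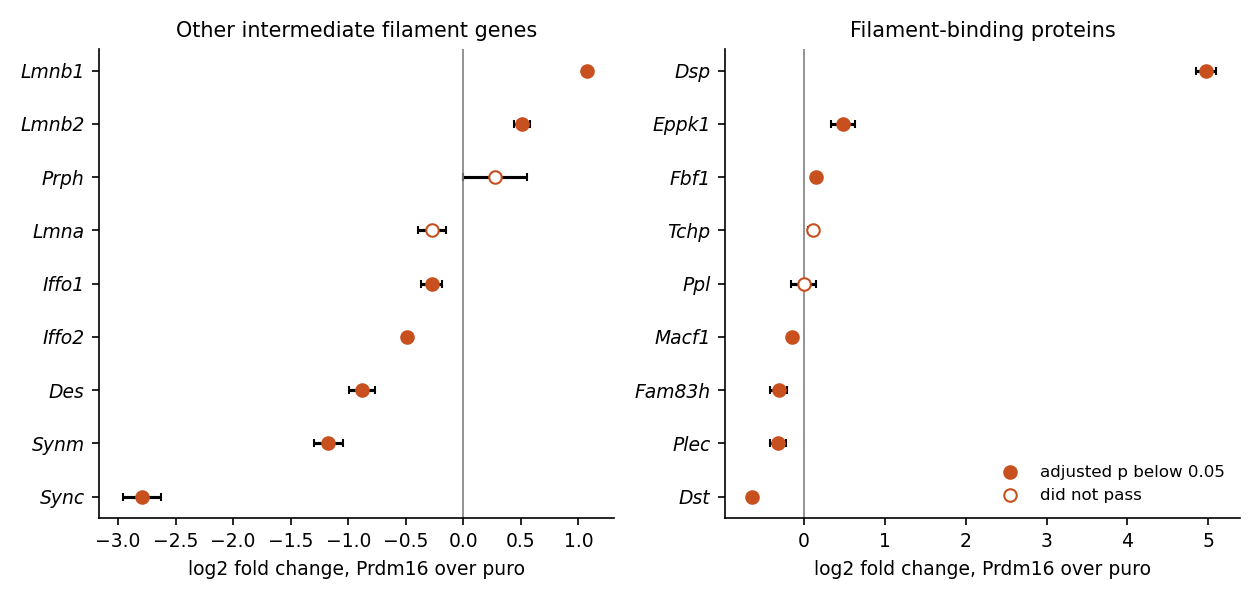
Log2 fold change (Prdm16 over puro) ± SE for tested intermediate filament genes other than the members (left; Nefh, with 0 puro counts, is not drawn) and for filament-binding proteins (right); filled points had an adjusted p below 0.05. Sync lies lowest on the left and Lmnb1 highest, and Dsp stands at 4.97 on the right while the others lie between −0.64 and 0.49.

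Genes next to the members in the RefSeq order showed no common direction. On the far side of Krt18 from Krt8, Eif4b, a translation initiation factor, and Tns2, the gene of a tensin listed in the table as Tenc1, fell with log2 fold changes of −0.56 ± 0.03 and −1.07 ± 0.06. Beside Krt8 on its other side, Krt78 had 7 and 1 counts and Krt79 had 3 and 5. Of the genes around Krt19, Krt15 is given above, Krt9 had no count and Krt14 had 1 and 2. Beside Vim, the endocytic receptor Cubn fell by 3.18 ± 0.11, the tRNA methyltransferase Trdmt1 rose by 0.48 ± 0.08 and Hacd1, listed as Ptpla, had −0.39 ± 0.12, a call lost without puro replicate 2 (−0.30, adjusted p = 0.0502). Beside Nes, the retinoic acid binding protein gene Crabp2 rose by 1.18 ± 0.18 and Isg20l2 by 0.32 ± 0.05, while Bcan and Hapln2 were too low for a test, with at most 17 counts over a group.

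For each tested member the 3 genes nearest in pattern were taken by the root mean square difference of centred log2 CPM (prior count 2) over the 6 libraries, among 12979 genes. For Krt18 they were Fmnl1, a formin (difference 0.33), the desmosomal gene Perp (0.36) and Galnt3, a mucin-type glycosyltransferase (0.39). Nearest to Krt19 were the phosphatase inhibitor gene Ppp1r1b (0.15), the Rac regulator Chn2 (0.18) and Etl4 (0.18), and nearest to Krt7 were Pla2g4b, Kazald1 and Cers3 (0.13 to 0.14). Vim was matched by Calhm2 (0.03), Tnip1 (0.04) and Parp10 (0.04), and Nes by Iglon5 (0.05), Asb4 (0.07) and Enpp1 (0.07). Since the groups differ for most genes, these lists mainly show genes with a like group difference.

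Markers of the epithelial cells that the inguinal depot can hold went in both directions. Over all tested genes 75.6% were called, 37.5% higher and 38% lower with Prdm16. Of 22 luminal mammary genes 9 were tested, 8 higher and 1 lower, and their summed level was 19.7 to 22.2 CPM in puro and 53.5 to 54.8 CPM in Prdm16 libraries. By the mean over all 6 libraries the most abundant were Esr1 (13.4 ± 0.656 and 18.0 ± 1.12 CPM), Muc1 (3.08 ± 0.371 and 9.31 ± 0.837 CPM) and Prom1 (2 counts in puro and 973 in Prdm16 cells). The one that fell was Pgr, the progesterone receptor gene, with 214 counts in puro and 2 in Prdm16 cells (log2 fold change −6.47 ± 0.39). The general epithelial adhesion genes Cdh1 and Epcam rose, from 8 to 703 and from 6 to 113 counts (log2 fold changes 6.42 ± 0.20 and 4.18 ± 0.47, the latter 5.93 without puro replicate 3). Pgr, Cdh1 and Epcam were named after their values were seen. The milk protein genes Wap, Csn1s1 and Csn2 had no count, and the luminal regulator Elf5 had 2 counts in puro and 0 in Prdm16 cells. Of 12 basal epithelial genes 5 were tested, 2 higher, 2 lower and 1 not passing, with a sum of 22.2 to 23.3 CPM in puro and 53.4 to 56.6 CPM in Prdm16 libraries, most of it from Perp (0.179 ± 0.044 and 33.7 ± 1.31 CPM) and Trp63 (18.1 ± 0.824 and 14.8 ± 0.931 CPM). Sfn, which did not pass, had a log2 fold change of 0.12 ± 0.15 and −0.0012 without puro replicate 1. Prom1, Cdh1, Epcam, Elf3, Perp and Lamb3 passed the low-count filter only through the Prdm16 group. Pgr and Col17a1 passed it only through the puro group. The directions of the calls of these genes were thus set by that filter, and nothing is read from the counts of calls.

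Mesothelium also makes simple keratins. Of its 11 listed markers, 3 were tested, 1 higher and 2 lower, with a sum of 120 to 141 CPM in puro and 147 to 163 CPM in Prdm16 libraries. The share called over all tested genes was 75.6% (37.5% higher and 38% lower). Msln, the gene of mesothelin, rose from 6.30 ± 0.266 CPM in puro to 91.2 ± 3.10 CPM with Prdm16 (SD, n = 3), whereas Cldn15 and the mesothelial regulator Wt1 fell, with −0.98 ± 0.08 and −5.75 ± 0.56. Wt1, with 75 counts in puro and 1 in Prdm16 cells, passed the low-count filter only through the puro group. Upk1b had no count, and Lrrn4 and Calb2 had at most 3 counts over a group. The part of any such cells in the keratin values was not tested.

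Pericytes and other cell types, among them some that carry nestin, were checked in the same way. Of 9 pericyte markers 5 were tested, 2 higher and 3 lower (sum 164 to 188 CPM in puro and 268 to 290 in Prdm16 libraries); Cspg4, the gene of NG2, fell by 3.95 ± 0.13 on the log2 scale, while Notch3 and Mcam rose by 0.69 ± 0.06 and 3.16 ± 0.05, and Kcnj8 had no count. Among 11 Schwann and neural markers 9 were tested, 3 higher and 6 lower (sum 12.04 to 12.84 and 48.8 to 53.4 CPM), most of the latter from Sox2, a regulator of neural progenitors, at 45.9 ± 2.54 CPM; Sox10 had no count. Of 9 skeletal muscle genes only Des was tested, and Myf5, Myod1, Myog and Ckm had no count. Endothelial markers were 1 higher, 1 lower and 2 not passing of 4 tested (sum 14.4 to 15.6 and 22.9 to 23.7 CPM), with Cdh5 and Cldn5 at 0, and macrophage markers 2 lower and 1 not passing of 3 (sum 14.2 to 15.4 and 8.45 to 8.66 CPM), with C1qa at 0. Sox2 passed the low-count filter only through the Prdm16 group. Since 75.6% of all tested genes were called (37.5% higher and 38% lower), nothing is read from the counts of calls in these lists. The part of such cells in the Vim and Nes values was not tested.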

How the data were processed

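RNA of 6 libraries (3 puro, 3 Prdm16) was measured by sequencing, and the authors deposited whole-number counts per gene symbol with no normalization. The submitters' processing notes name STAR, featureCounts, Subread and mm9, with no role or order; the sources used here give neither the strand setting nor the treatment of reads with several matches, so overlapping genes and paralogs may share reads. Groups came from the sample titles. The members, the gene lists and the rule for named genes were chosen with earlier results of these data known. Named genes were the members, genes among the 2 neighbours on each side and the 3 genes nearest in pattern. Up to 6 tested genes of each filament list were added by smallest p. The 3 most abundant genes were named for the luminal, basal, mesothelial and pericyte lists. Only the most abundant gene was named for the stromal and Schwann lists, and none on that ground for the endothelial and macrophage lists. Defining markers listed at or near 0 were named as well.

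Counts were fitted with edgeR 4.0.16 in R 4.3.3: filterByExpr left 13805 genes, TMM scaled the libraries, and the groups were compared by the two-sided quasi-likelihood test, without a replicate block and with p-values adjusted over these genes by Benjamini-Hochberg. It was tested on simulated data. Each SE was derived from the log2 fold change and its F statistic. Counting intervals are exact (Clopper-Pearson, 95%) and, like floors of 3 counts, cover counting error only. The alternatives tried were upper-quartile and RLE scaling, testing every gene, at least 1 CPM in 3 libraries, DESeq2 1.42.0, limma-voom (limma 3.58.1), a replicate block, Prdm16 left out, prior counts of 0.5 and 2, other transcript lengths (the RefSeq-matched length was chosen after seeing the data) and each library left out. Lengths, neighbours and promoters come from GRCm38 annotation and not from mm9. Replicate libraries differed by more than sampling noise (chi-square per gene 2.14 to 9.30).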

Additional observations from a re-analysis of the deposited data

How the results depend on the processing

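The log2 fold changes of the 5 tested members kept their sign under all alternatives run: 6.67 to 8.08 for Krt18, 5.49 to 6.30 for Krt19, 0.78 to 1.13 for Krt7, −1.39 to −1.28 for Vim and −2.55 to −2.41 for Nes. The low ends of Krt18 and Krt19 came with a prior count of 2, which shrinks genes with few puro counts by construction. Krt7 could not be fitted with the filter of 1 CPM in 3 libraries. Krt8, with 4 counts in each group, was fitted only without a filter (log2 fold change 0.04). Counts of called genes ranged from 9735 to 11149 over the alternatives (9884 to 10444 with a library left out). Without a filter 6 other keratins were called in place of 4: 4 were higher in place of 3, with Krt15 added (3.21, adjusted p = 0.00343), and 2 lower in place of 1, with Krt17 added (−2.74, adjusted p = 0.00699). Called filament-binding proteins went from 7 to 5 with DESeq2, of which 2 were lower in place of 4; with a library left out they ranged from 4 to 7 in all and from 1 to 4 lower. The lowest values, 4 and 1, came without Prdm16 replicate 3, and 2 were lower without Prdm16 replicate 2. The cause was not tested. Ppl, never called, changed sign with RLE scaling (0.0012), without a filter (0.0157) and without puro replicate 1 (0.0002), puro replicate 3 (0.0728), Prdm16 replicate 2 (0.0127) or Prdm16 replicate 3 (0.118); it ranged from −0.145 to 0.118 with a library left out. Sfn, also never called, had −0.0012 without puro replicate 1 and 0.24 without puro replicate 3, its lowest and highest values. The replicate numbers are not said to pair the libraries, and deviations from the group mean correlated at −0.164, 0.099 and −0.067 between same-numbered libraries. With a replicate block Krt18 had 7.49, Vim −1.34 and Nes −2.50, and among the named genes only Lmna changed its call (adjusted p = 0.0258). Depth limits what can be said of Krt8 and of the puro levels of Krt18 and Krt19, which lie at the floor of 3 counts.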
